A study of Mus musculus with 2 samples.

Results

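The cytosolic ribosomal protein genes were taken from the gene list of 2 single-cell RNA libraries by symbol: Rpl or Rps followed by a digit, plus Rpsa, Rplp0, Rplp1 and Rplp2, without pseudogene (-ps) symbols and without the Rps6k kinases, and with at least 50 UMIs (molecular barcodes that count captured RNA molecules) over both libraries. Of 32285 listed features, 86 matched the symbols and 85 were kept. Rpl39l, with 139 UMIs, was the member nearest the minimum, and Rpl10l, with 0 UMIs, was the symbol left out. By symbol, 34 members belong to the small subunit and 51 to the large subunit, and 8 of the 85 are paralogs or near names (Rpl36al, Rpl22l1, Rps27l, Rps27rt, Rpl7l1, Rps19bp1, Rpl3l and Rpl39l). The members lie on 19 mouse chromosomes, with 14 on chromosome 7. Together they held 27.0% of all UMIs in one library and 25.5% in the other.

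Both libraries hold live CD45+ cells, the surface mark of white blood cells, sorted from subcutaneous allograft tumours of mice on day 14 after inoculation. In the library called KP the genotype label is WT, and in the library called KPT it is Tdg KO, where Tdg is the gene of a DNA glycosylase that starts the repair of mismatched thymine and of oxidised methylcytosine. Both come from tumours of the KP model, which the series title places in p53-deficient cancer; neither the cells that carry the genotype nor the number of pooled animals is given in the sources used here. There was 1 library per genotype, so differences between the libraries have no replicate check, no p-value is given, and the 95% intervals cover counting error only.

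Ribosomal proteins are the structural partners of ribosomal RNA in the small and the large subunit of the cytosolic ribosome. Their mRNAs are among the most abundant of a cell and are translated together, because most start with a terminal oligopyrimidine (TOP) tract that the mTORC1 pathway reads through LARP1. Resting lymphocytes keep a small cytoplasm rich in these mRNAs, while mature neutrophils have shut down much of ribosome production.

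The 5' starts are shown because the TOP tract is what the family is known to share. A TOP-like start was taken as a C within the first 5 bases followed by at least 4 bases that are C or T, on the gene's strand. RefSeq gave a start for 65 members (GRCm38, the same assembly as mm10), and 24 of them (36.9%) had a TOP-like start, against 11.5% of 27025 genes in the same table. Annotated starts can lie some bases from the start used in a cell, so a start without the tract says only that these letters are not in this window. The first 24 bases of 8 members named below follow, with the tract in capitals where there is one; Rpl35 starts at chr2:39005108-39005131 on the minus strand, Rps6 at chr4:86857344-86857367 on the minus strand, and Rps27 at chr3:90213625-90213648 on the minus strand.
Rpl35: CTCTTTCTCTCgaaccaggctgct
Rpl38: CTTTCCCCgttctcttcggttctc
Rps27: CCTTTCCggcggtgacgacctccc
Rps6: CTCTTTTTCgtgacgcctcccagg
Rpl12: gtCTTTTCggctttcggctcggag
Rps28: ctcgcgagagcgaaagtgaggcgt
Rpl5: gtgctggtggtgctacatactgcg
Rps15: gataactgcgcaagcgcagcccgt

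The KP library held 5604 barcodes and 39819010 UMIs and the KPT library 5896 barcodes and 52586319 UMIs, with 8 barcodes in common. A filter of at least 200 genes and no more than 10% mitochondrial UMIs left 5504 and 5693 cells, with a median of 5378 and 6419 UMIs. They were clustered without the ribosomal protein genes, and 24 of 36 clusters were named from marker genes; 985 KP cells and 1563 KPT cells stayed unnamed. The labels speak of lymphocytes, and the named classes also held neutrophils, macrophages, monocytes and dendritic cells. In all, 13 classes had at least 50 cells in each library and are described, and 9 had at least 100 and were compared. Tdg itself was at 25.1 CPM (UMIs scaled to 1000000 per library or class) in KP and 26.5 in KPT (ratio 1.06, 0.974 to 1.15). These 3' counts need not change when a gene is disrupted upstream, so they check nothing about the label, and KPT stands for the library labelled Tdg KO throughout.

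The ribosomal protein share of UMIs differed more between cell classes than between the libraries. Naive-like T cells, the recirculating T cells that have not met antigen, had the highest share, 42.5% in KP and 40.8% in KPT. ILC2-like cells, innate lymphocytes of type 2 immunity, followed in KP at 36.5%, with 30.9% in KPT. CD8 T-like cells were at 30.9% and 29.3%, B-like cells at 30.6% and 29.3%, and NK-like cells at 28.4% and 27.3%. Treg-like cells, the Foxp3 regulatory T cells, had the lowest share of the lymphoid classes, 23.2% and 22.5%.

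Among myeloid classes, cDC1-like cells, the cross-presenting dendritic cells, had a share of 28.8% in KP and 26.7% in KPT. Macrophage-like cells were at 23.9% and 21.6%, migratory DC-like cells at 23.5% and 22.2%, and monocyte-like cells at 19.4% and 18.3%. Neutrophil-like cells were lowest in both libraries, at 10.0% and 12.9%. The highest class share was 4.24 times the lowest in KP and 3.16 times in KPT, and 5.53 and 4.93 times without barcodes holding transcripts of another lineage. Across the 13 classes the order was alike in both libraries (Spearman's rho 0.96, a description over classes that share each library's depth), and neighbours such as CD8 T-like and B-like cells, 30.9% and 30.6% in KP, cannot be ordered without replicates.

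**Figure D1:**
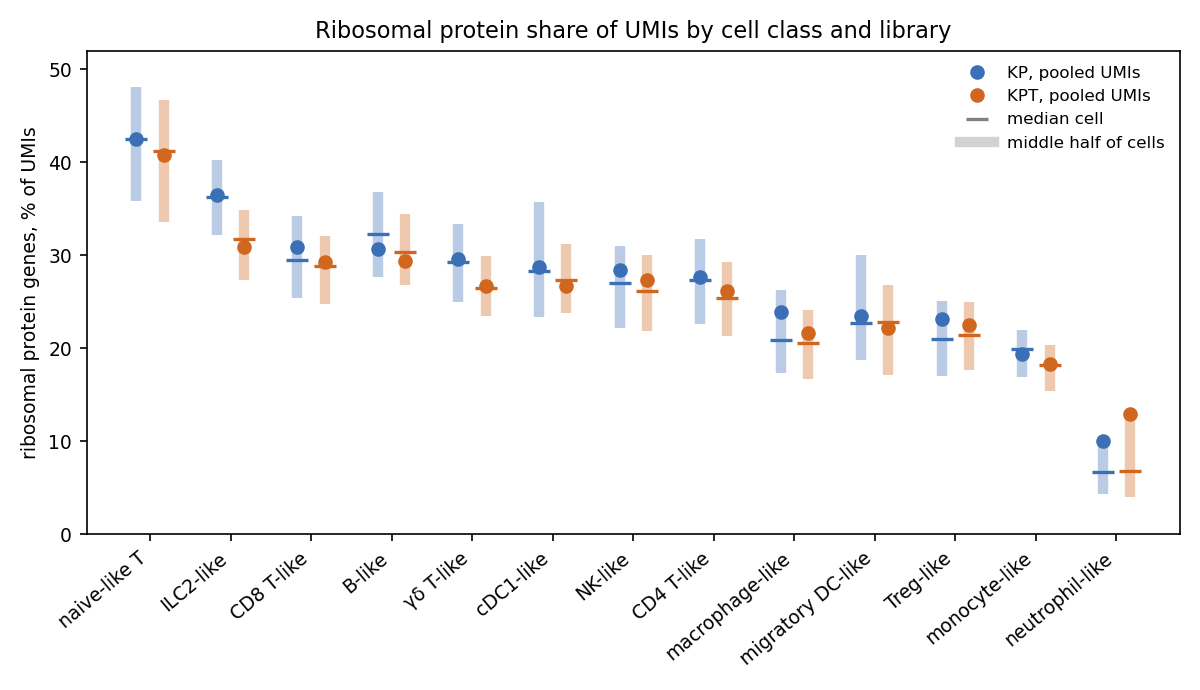
The y axis is the share of UMIs in the 85 ribosomal protein genes (percent) and the x axis the 13 cell classes in the order of KP; points are pooled UMIs, short lines the median cell, and bars the range from the first to the third quartile of cells. Naive-like T cells sit highest (42.5% and 40.8%), neutrophil-like cells lowest (10.0% and 12.9%), and the KPT point is below the KP point in 12 of 13 classes.

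Single cells of a class spread more widely than the libraries differed. The middle cells of the naive-like T class, from the first to the third quartile, ranged from 35.9% to 48.1% in KP and from 33.6% to 46.7% in KPT. Clusters inside a class also differed. Among CD4 T-like cells the cluster led by Ramp3 and Cd40lg, the latter a signal to B cells, had 31.0% in KP and 28.6% in KPT, and the cluster led by the cytokine genes Tnfsf11, Ccl1 and Csf2 had 24.5% and 23.4%. In naive-like T cells the cluster led by Dapl1 and Igfbp4 was at 45.0% and 44.1%, and the one led by the heat shock genes Hspa1a and Hspa1b at 37.1% and 33.9%. Macrophage-like cells led by Arg1 and Mt2 had 28.2% in 72 KP cells and 21.5% in 32 KPT cells, those led by C1qc and Apoe 23.03% and 22.1%, and those led by Spp1 and Ccl24 18.8% and 18.7%. Each of these 7 clusters was lower in KPT. The value of a class also carries its mix of clusters: the Arg1 cluster was 72 of 240 macrophage-like cells in KP and 32 of 287 in KPT.

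The single members followed the class order. Among the 83 members with at least 500 UMIs, naive-like T cells had the highest CPM for 66 members in KP and 74 in KPT, and neutrophil-like cells the lowest for 78 and 77. These counts were not made over other genes. A member's CPM in its highest class was a median of 4.20 times that in its lowest class in KP and 3.16 times in KPT. Rps24, a small-subunit protein and the member with the most UMIs (ahead of Rps29, Rplp1, Rpl13 and Rps27), was at 13885 CPM in naive-like T cells of KP and 13096 in KPT, and at 1809 and 2864 in neutrophil-like cells. Rplp0, the base of the stalk that recruits elongation factors, was at 5931 and 5853 CPM in naive-like T cells and at 1259 and 1776 in neutrophil-like cells. The large-subunit UMIs were between 1.12 times (naive-like T cells of KP) and 1.27 times (Treg-like cells of KP) the small-subunit UMIs in every class and library described.

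Members of known individual roles spanned a similar range. Rps6, the small-subunit protein phosphorylated by the S6 kinases downstream of mTORC1, was at 2730 CPM in naive-like T cells of KP and 2978 in KPT, against 614 and 921 in neutrophil-like cells. Rpl5 and Rpl11, which with the 5S ribosomal RNA can bind Mdm2 and stabilise p53, were at 2592 and 4408 CPM in naive-like T cells of KP and at 446 and 1114 in neutrophil-like cells of KP. Rps19, mutated in Diamond-Blackfan anaemia, was at 6607 CPM in naive-like T cells and 2958 in NK-like cells of KP. Rpl22, required for the development of alpha-beta T cells in mice, was at 2808 CPM in naive-like T cells and 1495 in monocyte-like cells of KP. These 5 members had their lowest value in neutrophil-like cells of both libraries. Naive-like T cells were highest for all 5 in KPT, and for all but Rpl22 in KP, where ILC2-like cells were at 2830 CPM.

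To separate the members from the total, each was also expressed per 10000 ribosomal protein UMIs of its class. On this scale the members differed less between classes: the range over the 13 classes, as the mean of both libraries, had a median of 0.51 log2, 45 of 83 members reached 0.5 log2 and 8 reached 1 log2. Without barcodes holding transcripts of another lineage 17 members reached 1 log2, and 16 did with every cell weighted equally. Of these 8, 5 are paralogs or near names (Rps27l, Rps19bp1, Rpl7l1, Rpl36al and Rps27rt) and 3 are core proteins (Rpl12, Rps27 and Rpl10). Rps27rt at 1.07 was just inside the threshold and Rpl14 at 0.95 just outside. The highest class was the same in both libraries for 55 members and the lowest for 51.

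**Figure D2:**
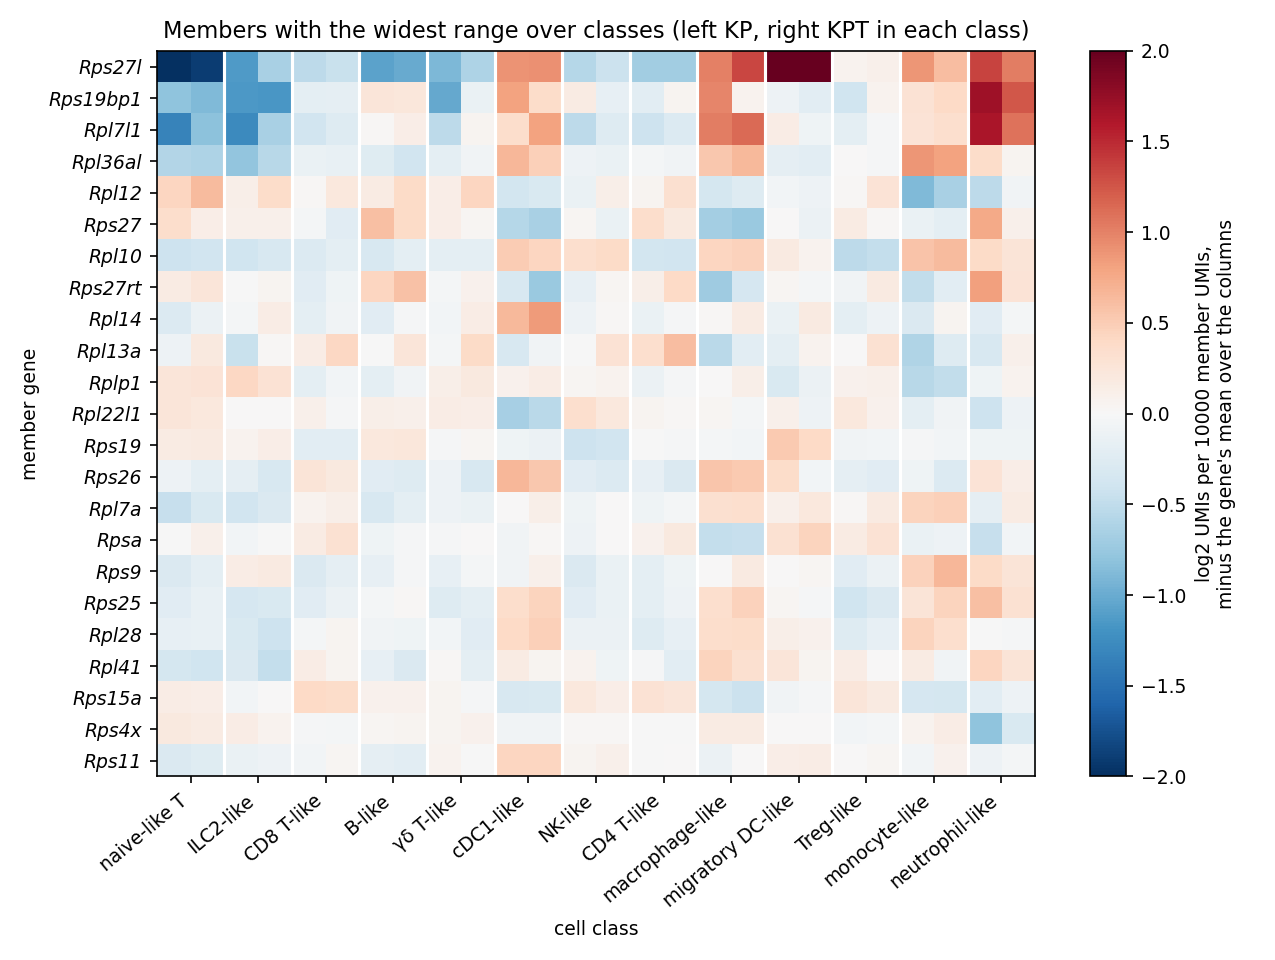
Rows are 23 of the 24 members with the widest range among those with at least 500 UMIs, columns the 13 classes with KP on the left and KPT on the right of each pair; colour is log2 UMIs per 10000 ribosomal protein UMIs minus the row's mean, and values past 2 take the end colour. Rps27l spans 4.26 log2, from naive-like T to migratory DC-like cells, and the rows below Rpl36al stay within 1.30 log2 in the mean of both libraries, with single-library ranges up to 1.53 log2 (Rps27rt in KP).

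Rps27l, whose human counterpart is induced by p53, had the widest range, 4.26 log2. Migratory DC-like cells, matured dendritic cells of the kind that travel to lymph nodes, had 53.5 Rps27l UMIs per 10000 in KP and 50.6 in KPT. Macrophage-like cells were at 21.9 and 27.7, neutrophil-like cells at 27.9 and 22.2, cDC1-like cells at 20.3 and 20.5, and monocyte-like cells at 20.1 and 16.7. All lymphoid classes lay lower, from 2.44 in naive-like T cells of KP to 11.7 in Treg-like cells of KPT. The myeloid and lymphoid classes did not overlap in either library. Rps27l was named for its range over these same classes, and the comparison was not made over other genes, so whether this is unusual is not known. Rps27l and Rps27 encode the same small-subunit position, so their coding sequences are shown from GENCODE, with the 61 of 255 positions that differ in capitals. The reads of the pair can be told apart: the sequences are 76.1% identical and share no run of 50 bases.
Rps27: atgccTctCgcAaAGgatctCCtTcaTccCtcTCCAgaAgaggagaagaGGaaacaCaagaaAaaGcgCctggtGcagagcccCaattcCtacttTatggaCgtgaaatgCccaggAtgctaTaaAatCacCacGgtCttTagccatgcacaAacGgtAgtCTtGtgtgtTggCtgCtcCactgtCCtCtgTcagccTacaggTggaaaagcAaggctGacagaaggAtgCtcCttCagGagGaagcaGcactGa
Rps27l: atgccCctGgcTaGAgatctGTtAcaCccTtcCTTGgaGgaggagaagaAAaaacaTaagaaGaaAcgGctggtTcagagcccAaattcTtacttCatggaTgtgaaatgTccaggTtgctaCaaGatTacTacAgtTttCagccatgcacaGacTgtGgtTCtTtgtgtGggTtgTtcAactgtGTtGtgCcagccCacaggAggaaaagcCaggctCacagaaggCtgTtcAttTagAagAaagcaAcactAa

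As a share of the UMIs of the pair, Rps27l held 20.4% (19.3 to 21.4) in migratory DC-like cells of KP and 20.9% (19.9 to 21.9) in KPT. In macrophage-like cells it held 14.5% (13.4 to 15.8) and 18.3% (16.9 to 19.6), and in naive-like T cells 0.917% (0.806 to 1.04) and 1.24% (1.08 to 1.41). The median over the 13 classes was 3.58% in KP and 4.29% in KPT. Rps27 itself was lowest in macrophage-like cells, at 129 and 124 per 10000. It was at 140 and 132 in cDC1-like cells, 209.5 and 191.9 in migratory DC-like cells, 264 and 226 in naive-like T cells and 315 and 271 in B-like cells. Neutrophil-like cells had 352 Rps27 UMIs per 10000 in KP and 223 in KPT.

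Rpl36al on chromosome 12, the autosomal paralog of the X-linked Rpl36a, had its highest share of the pair in monocyte-like cells, 61.1% (59.1 to 63.1) in KP and 60.6% (57.8 to 63.4) in KPT. It held 54.8% and 53.2% in cDC1-like cells, and 26.7% and 26.6% in naive-like T cells. ILC2-like cells had 23.7% in KP and 29.5% in KPT. Neutrophil-like cells had 53.4% in KP and 43.4% in KPT, the widest gap between the libraries for this pair. Rpl22l1, the paralog of Rpl22, varied less, from 16.6% of the pair in cDC1-like cells to 32.9% in naive-like T cells of KP, and from 18.5% to 32.6% in the same classes of KPT. Of the 3 pairs, this was the one in which naive-like T cells stood at the top.

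**Figure D3:**
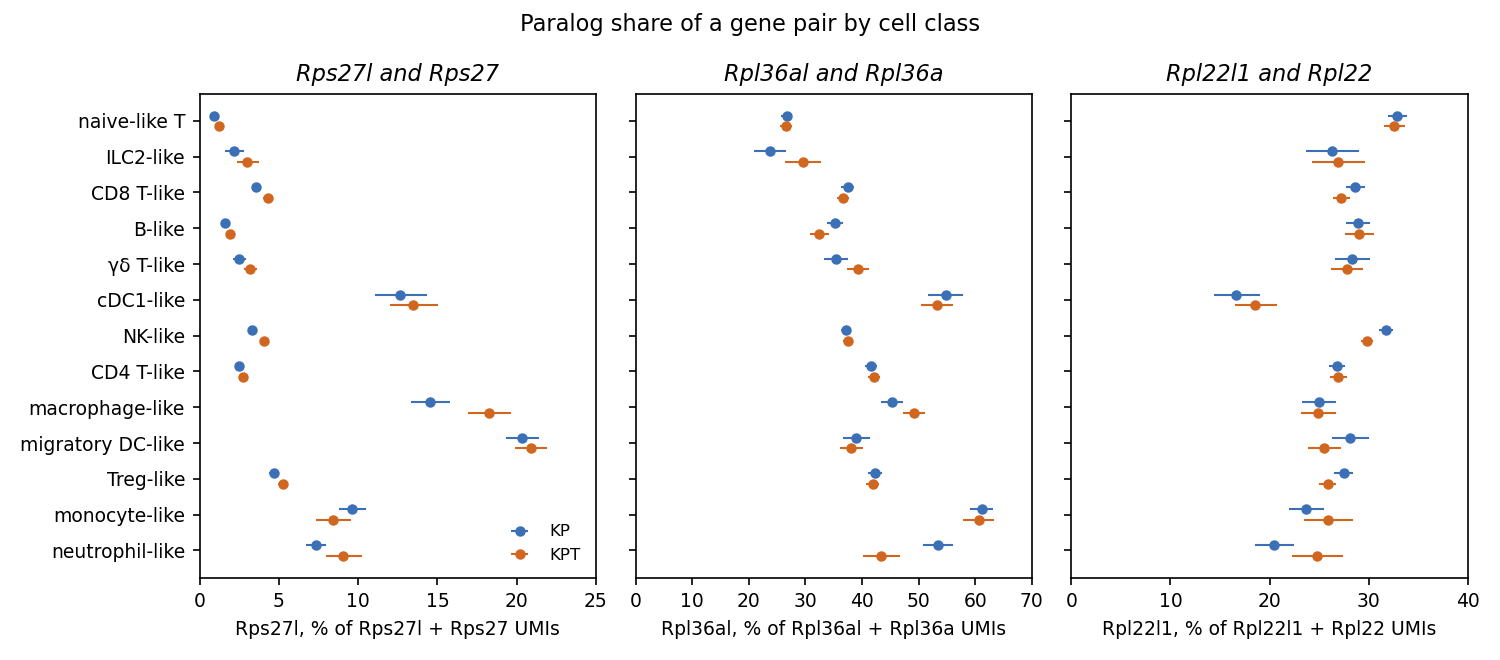
The x axes are the UMIs of the paralog as a percent of the UMIs of both genes, and rows are the 13 cell classes; points are libraries and lines 95% binomial intervals (Clopper-Pearson, counting error only). Rps27l runs from 0.917% to 20.4% in KP, Rpl36al from 23.7% to 61.1%, and Rpl22l1 from 16.6% to 32.9%.

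The 2 rarest paralogs had few UMIs in any class. Rpl3l, the striated-muscle form of Rpl3, had 71 UMIs in the neutrophil-like cells of KP and 19 in those of KPT, which is 42.9 and 22.97 CPM. Macrophage-like, migratory DC-like and monocyte-like cells had between 5 and 13 Rpl3l UMIs per library, and B-like, Treg-like, gamma-delta T-like, ILC2-like and naive-like T cells had 0 in both. Rpl39l, the testis-enriched form of Rpl39, had at most 20 UMIs in any class, 20 and 10 of them in Treg-like cells of KP and KPT. Rps27rt has the same 255 coding bases as Rps27 and shares 89.8% of its 50-base windows with it, so its reads are uncertain; it held between 2.80% and 4.65% of that pair in every class and library described. Rpl7l1 and Rps19bp1 are near names rather than subunit proteins, a ribosome assembly factor and a regulator of the deacetylase Sirt1. Per 10000, Rpl7l1 was highest in neutrophil-like cells of KP (4.94) and macrophage-like cells of KPT (3.47) and lowest in naive-like T cells (0.545 and 0.820).

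The 3 core proteins with a wide range went different ways. Rpl12, which sits at the base of the stalk, was highest in naive-like T cells, at 150 UMIs per 10000 in KP and 172 in KPT, and lowest in monocyte-like cells, at 60.0 and 71.1. Rpl10, the last protein to join the large subunit, was highest in monocyte-like cells, at 156 and 163, and lowest in Treg-like cells, at 73.3 and 75.3. NK-like cells, at 132 and 136, were the lymphoid class with the most Rpl10, and every other lymphoid class lay at or below 91.9. On the CPM scale Rpl10 was at 3756 and 3728 in NK-like cells and at 1698 and 1694 in Treg-like cells, so the libraries were closer to each other than the classes were.

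Between the libraries, the ribosomal protein share was lower in KPT in 8 of 9 compared classes. The ratio of shares, KPT over KP, was 0.901 (0.897 to 0.906) in gamma-delta T-like cells, 0.906 (0.901 to 0.912) in macrophage-like cells, 0.945 (0.943 to 0.948) in CD4 T-like cells, 0.950 (0.947 to 0.952) in CD8 T-like cells and 0.957 (0.953 to 0.961) in B-like cells. It was 0.960 (0.957 to 0.963) in naive-like T cells, 0.961 (0.959 to 0.963) in NK-like cells and 0.970 (0.967 to 0.973) in Treg-like cells. In percentage points, KPT minus KP ran from -2.92 in gamma-delta T-like cells to -0.687 in Treg-like cells. The share of mitochondrial UMIs was higher in KPT in 9 of 9 compared classes (0.739% to 2.54% in KP and 1.31% to 3.18% in KPT over the 13 described), and its part in the difference was not tested. The summed CPM of 14 dissociation and stress genes was also higher in KPT in each of these 8 classes. It ran from 1.01 times KP in CD4 T-like to 1.34 times in macrophage-like cells, with 1.19 times in gamma-delta T-like cells. At 1.5-fold, 14 of 112 pairs of a gene and a class were higher and 0 lower, with 6 of the 14 in macrophage-like cells. Over all genes, between 5.36% (NK-like) and 20.6% (macrophage-like) passed 1.5-fold either way in these classes. The sum was also higher in KPT in neutrophil-like cells, at 1.16 times KP, where the ribosomal protein share was higher. The part of these genes was not tested either. Of the 4 classes described but not compared, ILC2-like cells had the widest gap, 36.5% in 53 cells and 30.9% in 61 cells; their T lymphocyte transcripts were 1.94 times as high in KPT.

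The share in the median cell was lower in KPT in 7 of 9 compared classes, and in 8 of 9 after each cell was thinned to 1000 UMIs. Before thinning it was 32.3% in KP and 30.3% in KPT in B-like cells and 27.4% and 25.5% in CD4 T-like cells, gaps wider than those of the pooled shares. The gap was narrower than the pooled one in CD8 T-like (29.4% and 28.8%) and NK-like cells (27.0% and 26.2%). It was also narrower in naive-like T (42.5% and 41.3%) and gamma-delta T-like cells (29.3% and 26.5%). Treg-like cells, with the smallest difference of the 8, had a median cell of 21% in KP and 21.4% in KPT, and of 21.1% and 21.2% after thinning. Macrophage-like cells had a median cell of 20.8% and 20.6% before thinning, also a narrower gap than the pooled one. B-like cells held many barcodes with transcripts of a second lineage (28.9%), and without such barcodes their shares were 34.0% and 31.9%.

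Neutrophil-like cells differed in direction, with a share of 10.0% in KP and 12.9% in KPT, a ratio of 1.29 (1.28 to 1.30). Their median cell was at 6.74% in 686 KP cells and 6.85% in 241 KPT cells, and at 6.60% and 6.30% after thinning, where KPT was the lower. The class joined a cluster led by Slc7a11 and Il23a, with a median of 2978.5 UMIs, and a shallower one led by Cstdc4 and S100a9, with 946, which held 328 of the 686 KP cells and 87 of the 241 KPT cells. The pooled share was 9.91% in KP and 12.9% in KPT in the first and 10.3% and 12.6% in the second. The median cell went from 6.09% to 4.99% in the first and from 7.88% to 10.2% in the second, in opposite directions. Cells with at least 15% ribosomal protein UMIs were 72 of 686 in KP (10.5%) and 50 of 241 in KPT (20.7%). The cells of 1 library are not replicates of a genotype, so no interval is given. The summed level of 8 T lymphocyte transcripts in the class was 926 CPM in KP and 1877 in KPT, a ratio of 2.03. Without barcodes that hold at least 3 marker genes of another lineage, 657 and 218 cells were left, with shares of 7.69% and 8.28% and a ratio of 1.08.

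**Figure D4:**
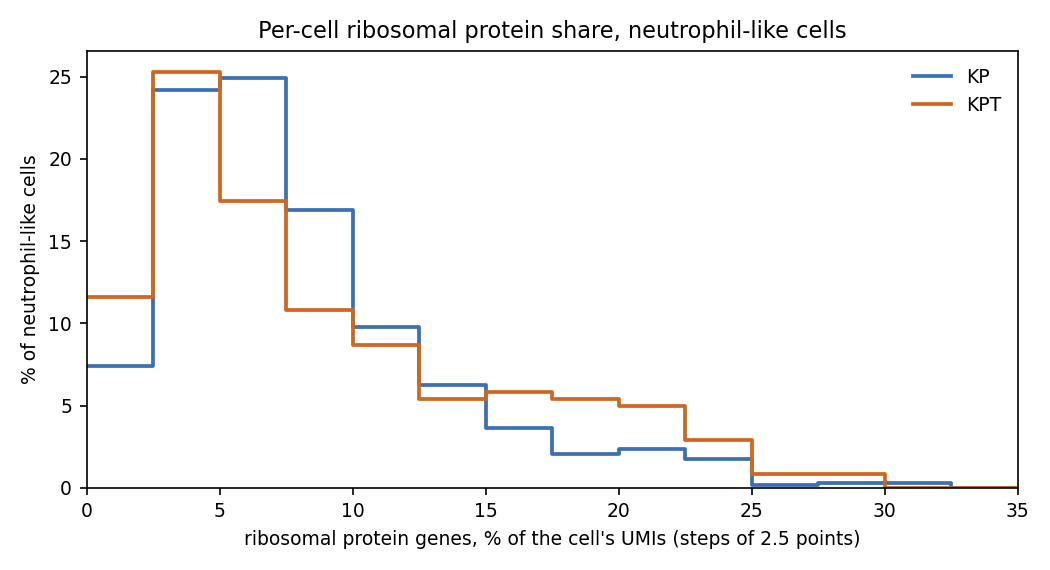
The x axis is the ribosomal protein share of a cell's UMIs (percent, in steps of 2.5 points) and the y axis the percent of the 686 KP and 241 KPT neutrophil-like cells. The median cells lie at 6.74% and 6.85%, and the KPT line is above the KP line at both ends, below 5% and between 15% and 30%.

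Gene by gene, few members differed by 1.5-fold in CPM in the 8 other classes. None of 83 members did so in B-like, CD4 T-like, CD8 T-like, NK-like, Treg-like or naive-like T cells, where 8.67%, 6.36%, 6.94%, 5.36%, 5.82% and 7.92% of all genes with at least 50 UMIs did. In gamma-delta T-like cells 1 of 82 did (10.6% of all genes): Rpl35, a large-subunit protein near the exit of the nascent chain, with 2493 CPM in KP and 1595 in KPT. In macrophage-like cells 1 of 83 did (20.6% of all genes): Rps19bp1, with 45 UMIs in KP and 22 in KPT. Counting error is smaller for the members, whose median UMI count in NK-like cells was 42940 against 317 for other genes. Among other genes with at least 1000 UMIs, 26.6% passed 1.5-fold in macrophage-like cells. In the rest of these 8 classes between 0.599% (NK-like) and 3.87% (gamma-delta T-like) did, shares at which few members would pass.

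In these 8 classes the median member was below 0 and the median of the other genes above 0 on the log2 scale. The medians of the members ran from -0.14 (gamma-delta T-like) to -0.03 (Treg-like), and those of the other genes from 0.03 to 0.08. The members lower in KPT were fewest in Treg-like cells, 48 of 83 with 35 higher, and most in macrophage-like cells, 72 of 83 with 11 higher. The other genes were not counted by direction. CPM sums to the same total in each class and library. A lower summed share of the members and a higher summed share of the other genes are therefore the same change. The sum does not fix the medians, and which genes moved was not tested.

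In neutrophil-like cells 20 of 84 members passed 1.5-fold, against 26.9% of all genes. Of the 20 members, 19 were higher in KPT and 1 lower. Of all 4686 genes tested, 969 were higher and 292 lower. Among genes with at least 1000 UMIs, 18 of 77 members and 17.4% of the other genes passed. The highest ratio was that of Rps4x, at 649 CPM in KP and 1183 in KPT (1.82), followed by Rpl3 and Rps15 (both 1.79), Rpl12 (1.77), and Rpl13a and Rpl23a (both 1.73). Rpl3l was the member that was lower, at 42.9 and 22.97 CPM. Without barcodes holding transcripts of another lineage, 3 members passed in this class.

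Relative to the member total, the composition of the ribosomal protein mRNAs shifted in the same direction in every compared class for 32 of the 82 members tested in all 9. Of these, 13 were lower in KPT in 9 of 9 classes and 19 higher. The same count was not made over other genes, so whether 32 of 82 is many is not known. As the classes share their library, the 9 values are not independent, and a difference between libraries in capture or preparation cannot be told apart from one between genotypes.

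The members lower relative to the total were led by Rpl35, with a median log2 ratio of -0.34 over the classes. Over all kept cells Rpl35 was at 2267 CPM in KP and 1695 in KPT, which is 83.8 and 66.3 per 10000. In NK-like cells it was at 2275 and 1720 CPM (relative ratio 0.787, 0.768 to 0.807), in naive-like T cells at 3751 and 2810 (0.780, 0.754 to 0.808) and in B-like cells at 2760 and 1975 (0.748, 0.712 to 0.785). Rps28, a small-subunit protein beside the mRNA exit channel, followed at -0.23, then Rpl36 and Rpl38 at -0.18, Rps27 at -0.17 and Rps29 at -0.16. Rpl38, known for selective translation of Hox mRNAs in embryos, was at 5535 CPM in naive-like T cells of KP and 4804 in KPT. Rps21, Rpl37a and Rpl41 were at -0.14, and Rpl37, Rpl34, Rpl24 and Rps26 were nearer to 0, at -0.13 to -0.06.

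The members higher relative to the total were led by Rps15, a small-subunit protein needed for export of the precursor, at 0.32, and by Rpl5, Rpl23a and Rpl13a, each at 0.30. Rps15 was at 1820 CPM in NK-like cells of KP and 2252 in KPT (relative ratio 1.29, 1.26 to 1.32) and at 1743 and 2119 in CD4 T-like cells (1.29, 1.25 to 1.33). Rpl5 was at 1432 and 1751 CPM in B-like cells (1.28, 1.21 to 1.35) and at 2592 and 3068 in naive-like T cells. Rpl13a, which also acts in the translational silencing complex of interferon-treated myeloid cells, was at 2512 and 2996 CPM in Treg-like cells (1.229, 1.195 to 1.263). Rpl11, the partner of Rpl5, was not among the 32: relative to the total it was higher in 4 classes and lower in 5, within -0.05 (CD4 T-like) to 0.07 (neutrophil-like) on the log2 scale. Rpl12 was at 0.25, Rps6 at 0.16 and Rpl14 at 0.15.

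**Figure D5:**
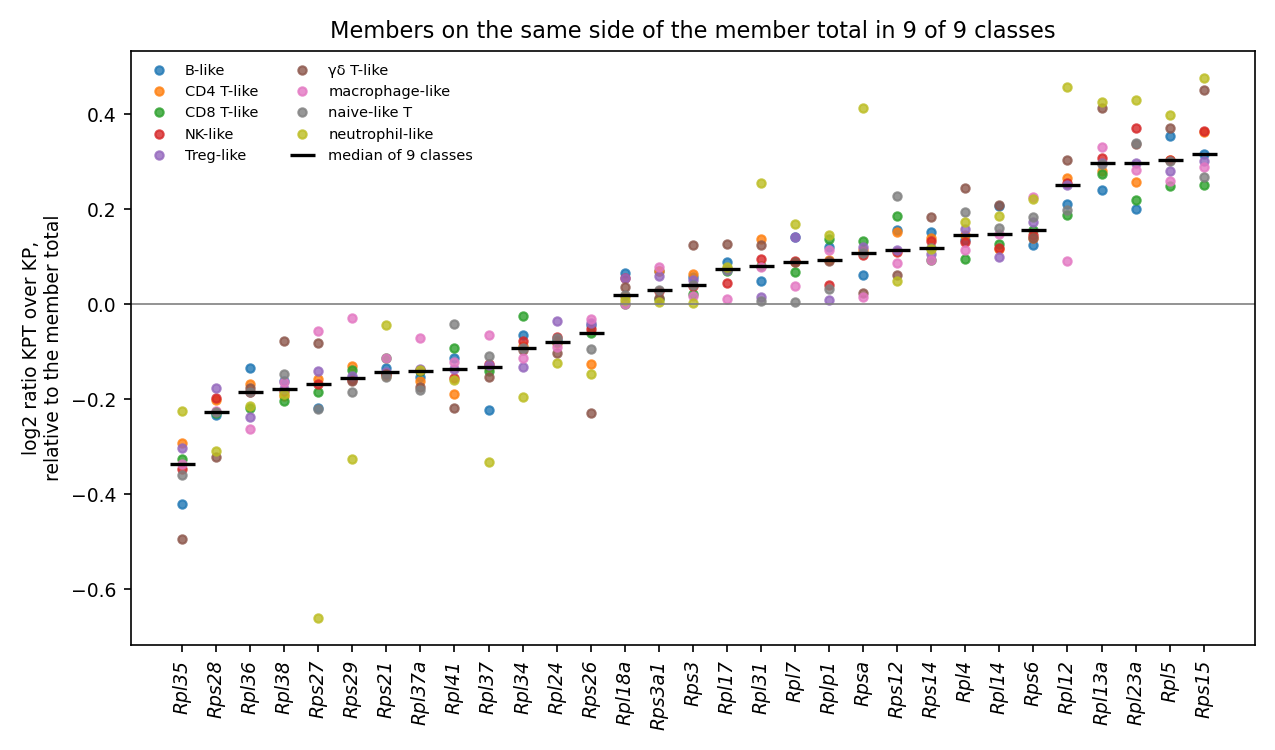
Each column is 1 of 31 of the 32 members that lay on the same side of the member total in 9 of 9 classes, the y axis is its log2 ratio KPT over KP relative to the member total, points are the 9 classes and black lines their median. Rpl35 is lowest with a median of -0.34 and Rps15 highest with 0.32; the neutrophil-like point of Rps27 is the lowest of all, at -0.66.

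Few of these shifts reached 1.2-fold relative to the member total. In B-like cells 3 of 83 members did (39.9% of all genes on the same scale), in CD4 T-like cells 7 (40.5%), in CD8 T-like cells 2 (39.4%), in NK-like cells 8 (33%), in Treg-like cells 6 (31.6%) and in naive-like T cells 6 (38.6%). In gamma-delta T-like cells 9 of 82 did (51.7%), in macrophage-like cells 7 of 83 (56.7%) and in neutrophil-like cells 27 of 84 (63.2%). Summed over the classes this is 75 pairs of a member and a class. This scale is centred on the members, which brings them nearer to 0 than other genes by construction. On the plain CPM scale, 60 of 84 members passed 1.2-fold in neutrophil-like cells, against 61.7% of all genes.

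The lower and higher members differed in median transcript length, a comparison made after their values were seen. The 13 lower members had a median transcript of 558 bases, from 345 (Rps27) to 946 (Rpl35), in the GENCODE M21 transcript chosen for each gene. The 19 higher members had a median of 1009 bases, up to 2045 (Rpl5). The lengths overlapped: Rps15 and Rpl23a, among those that led the higher members, have 500 and 560 bases. Each length is that of 1 annotated transcript, such as 5179 bases for Rps15a and 3706 for Rps20. Whether these cells used the chosen transcripts was not checked. Over the 77 members other than paralogs and near names, the median log2 ratio correlated with log2 length at r = 0.25 (Spearman's rho 0.31), a description across genes. Of these 77, the 5 of at most 400 bases were all lower in KPT over all cells, with a median log2 CPM ratio of -0.27. The medians of the longer members showed no steady trend. They were -0.01 for the 5 from 400 to 500 bases, -0.09 for the 8 from 500 to 600 and -0.07 for the 18 from 600 to 800. They were -0.07 for the 24 from 800 to 1200 bases and -0.04 for the 12 from 1200 to 2000. The 5 over 2000 bases, of which 4 were lower, had -0.10. Rps27rt, a near name of 374 bases whose reads are uncertain, went the other way, higher relative to the total in 8 of 9 classes. Outside the members, 15 of 20 protein-coding genes of at most 400 bases were lower, with a median of -0.20. Their medians rose with each step of length, over -0.14, -0.11, -0.01, 0.003 and 0.04, to 0.13 for those over 2000 bases. Whether length is behind the shift was not tested. TOP-like starts were found in 6 of the 11 lower members with a RefSeq start and in 4 of 12 higher members.

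Ribosomal protein genes that the symbol rule misses were found on both sides. Fau, which encodes a ubiquitin-like protein fused to a small-subunit protein, was lower in KPT in 9 of 9 classes in CPM, at 0.727 to 0.903 times KP. Rack1, the scaffold on the head of the small subunit, was higher in 9 of 9, at 1.02 to 1.66 times KP, with the highest ratio in neutrophil-like cells.

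Other translation genes were counted at 1.5-fold in CPM, as the members were; over all genes, between 5.36% (NK-like) and 20.6% (macrophage-like) of genes passed in the 8 classes other than neutrophil-like. Of 7 elongation genes, none passed in these 8 classes, and the medians ran from -0.04 to 0.15 log2. Eef1a1, which delivers aminoacyl-tRNA, was at 6102 CPM in KP and 6023 in KPT in NK-like cells, and Eef2, the translocase, at 773 and 880. Of 28 initiation genes, 3 pairs of a gene and a class of 224 tested passed 1.5-fold, all higher in KPT. Of 39 ribosome biogenesis genes, 12 pairs of 247 were higher and 4 lower, and of 78 mitochondrial ribosomal protein genes 5 were higher and 12 lower of 550, with medians from -0.07 to 0.03. Of 21 other known TOP transcripts, 2 pairs of 168 passed, both lower; Tpt1, the most abundant of them by UMIs, was at 7999 and 8465 CPM in NK-like cells. In neutrophil-like cells 969 of all 4686 genes tested were at least 1.5-fold higher in KPT. On the same count 3 of 6 elongation genes, 7 of 28 initiation genes, 8 of 21 TOP transcripts and 7 of 15 biogenesis genes were. Of 50 mitochondrial ribosomal protein genes 9 were higher and 2 lower. Of 11 mTORC1 and Myc regulators 1 was higher and 1 lower. The T lymphocyte transcripts of that class were 2.03 times as high in KPT, and their part was not tested.

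Across the 13 classes in both libraries (26 points that share 2 libraries), the CPM of 1270 genes outside the members was compared with the summed share of the members. Npm1, a nucleolar chaperone of ribosome assembly, was most alike (r = 0.961), followed by Rack1 (0.959). The large-subunit assembly factor Nsa2 (0.932) and Eef1a1 (0.929) also ranked among the 5 most alike. Npm1 ran from 221 CPM in neutrophil-like cells of KP to 1305 in naive-like T cells. Fau was less alike, at 0.613. Tmbim6, an endoplasmic reticulum membrane protein, was most opposed (r = -0.941), with 144 CPM in naive-like T cells and 515 in neutrophil-like cells, followed by Rab7 of late endosomes (-0.909) and the glutathione reductase gene Gsr (-0.892). Neutrophil-like cells were the lowest point for each of the 5 genes most alike and the highest for these 3 most opposed.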

How the data were processed

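The authors deposited raw UMI counts per gene and barcode from 10x 3' single-cell libraries, made with Cell Ranger 6.0.1 per the file headers; Seurat and the mm10 build are also listed, with no role, per the submitters' processing notes. The members and gene lists here were chosen with earlier results of these data known. The cell filter was at least 200 genes and no more than 10% mitochondrial UMIs. Counts were clustered jointly (scanpy 1.11.5, 2000 variable genes without ribosomal protein, mitochondrial, immunoglobulin and receptor variable genes, 30 components, 15 neighbours, Leiden resolution 1, lymphoid and mononuclear phagocyte cells clustered again). Clusters took a "-like" name from marker lists, needing 3 detected markers, and stayed unnamed where leading genes pointed elsewhere. Some clusters with many mixed barcodes, or with few UMIs and leading genes of another kind, were also left unnamed. These limits were set after seeing the data. The B-like cluster (28.9% mixed barcodes) and the shallower neutrophil-like cluster (median 946 UMIs) kept their names. No doublet caller was run.

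Raw counts were summed per class and library. With 1 library per group there is no test. Shares have exact binomial 95% intervals (Clopper-Pearson) and ratios exact conditional Poisson intervals; UMIs share cells and 1 preparation, so both cover counting error only. The range over classes used log2 of UMIs per 10000 member UMIs plus 0.1. Named members were the 5 with the most and the 5 with the fewest UMIs, the 8 with the widest range, the 2 highest and 2 lowest relative ratios per class by the interval bound nearest 1, the paralogs, and 8 members of known role; not all are printed, and members added for their direction in 9 of 9 classes were chosen after their values were seen. Lengths and coding sequences came from GENCODE M21 and starts from RefSeq, both GRCm38. All 85 gene IDs matched. The ratio steps were tested on simulated counts. Values of 2 genes that the rules would name are not reported here, and the plots leave them out.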

Additional observations from a re-analysis of the deposited data

Results flagged for a closer look

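The ribosomal protein share ratio KPT over KP was above 1 in neutrophil-like cells (1.29) and below 1 in each of the 8 other compared classes (0.901 to 0.970). With 1 library per genotype, the difference between neutrophil-like cells and the other classes was not tested. The ratio without barcodes holding transcripts of another lineage was 1.08, and the median cell was at 6.74% in KP and 6.85% in KPT, and at 6.60% and 6.30% after each cell was thinned to 1000 UMIs.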

How the results depend on the processing

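The ribosomal protein share was lower in KPT in 8 of 9 compared classes under every setting run, and the neutrophil-like ratio stayed above 1, between 1.08 and 1.33. The size of the ratios moved. The Treg-like ratio, 0.970 in the main run, ran from 0.953 to 0.999 over the settings, and 0.999 (every cell weighted equally) is almost no difference. The naive-like T ratio, 0.960 in the main run, ran from 0.932 to 0.987. No pooled ratio changed direction; the median cell did in Treg-like cells (21.1% and 21.2% after thinning) and, after thinning, in neutrophil-like cells (6.60% and 6.30%), relative to the pooled shares. With 1 library per genotype these settings say nothing of the spread between animals.

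The highest over the lowest class share, 4.24 in KP and 3.16 in KPT, was 4.47 and 3.30 with no filter on cells, 4.12 and 3.09 with at least 500 genes and at most 5% mitochondrial UMIs, and 5.11 and 4.34 with cells thinned to 1000 UMIs. It was 5.53 and 4.93 without barcodes holding transcripts of another lineage, 5.13 and 4.37 with every cell weighted equally, 4.49 and 3.45 at Leiden resolution 0.5 and 4.67 and 3.47 at resolution 2. Members past 1.5-fold, 22 summed over the classes, were 13 after thinning, 5 without such barcodes, 6 with equal weights and 12 when scaled to the median ratio of other genes. Members past 1.2-fold relative to the total, 75 in all, were 40 among transcripts over 600 bases, where fewer members are counted (an alternative chosen after seeing the data). Members with a range of at least 1 log2, 8 in all, were 17 without barcodes of another lineage, 16 with equal weights and 3 among structural proteins only, where fewer members are counted. The cause of the other changes was not tested. No paired analysis was possible because each genotype has 1 library.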
